A study of Mus musculus with 12 samples.

Results

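Acetylation-mimetic Zeb1 was set against wild-type (WT) Zeb1 over every gene row of the raw count table, with 3 libraries of the mimetic line against 3 of the WT line, 6 of the 12 libraries in the series. The table held 12208 genes, of which 12027 passed a filter on low counts and were tested. All lines were mouse 393P lung cancer cells, untreated, which the labels call epithelial and non-metastatic. The mimetic line has the genotype Zeb1_mimetic and the WT line Zeb1_WT; the other lines, Zeb1_deficient and GFP_Vector, served to estimate spread and as side levels. The series title names acetylation at K811, a lysine of the protein, and no mutation was read from these counts. Each Zeb1 form is 1 line, the vector line has Zeb1 RNA of its own, and the promoter that drives the introduced forms is not given in the sources used here. Libraries carry replicate numbers up to 3 in their labels, whereas the design text speaks of another number of replicates. P-values reflect only how far libraries of the same line differ, and the Zeb1 form and any other difference between these lines cannot be told apart.

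The zinc-finger protein ZEB1 is a transcription factor that binds E-box letters such as CAGGTG and CAGGTA in promoters, recruits corepressors, and represses genes of epithelial adhesion and polarity. In carcinoma cells its activity drives the epithelial-mesenchymal transition (EMT), in which cells lose junctions and gain motility. Acetylation of a lysine removes its positive charge, and an acetylation mimetic is a residue change that imitates this state. NuRD, a complex that joins nucleosome remodelling with histone deacetylation, is named in the series title as a partner of ZEB1.

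The promoters of several epithelial genes that were higher in the mimetic line show the letters in question. Promoter windows were 300 bases long and ended 50 bases after a start listed by RefSeq on GRCm38.p6. That start can lie within the gene span given below, as for Crb3 and Krt7. Of 20 windows checked, 16 ended in letters found near the 5′ end of an annotated transcript of the gene. Both strands were searched for CAGGTG and CAGGTA, which read CACCTG and TACCTG on the other strand. Shown are the polarity gene Crb3 (chr17:57061951-57062250, plus strand), the tricellular junction receptor Lsr (chr7:30973420-30973719, minus strand), the protease inhibitor Spint2 (chr7:29281928-29282227, minus strand), the polarity kinase Prkcz (chr4:155361379-155361678, minus strand), the keratin Krt7 (chr15:101412153-101412452, plus strand) and the desmosome linker Dsp (chr13:38151044-38151343, plus strand). Each is written 5′ to 3′ along the gene, with the matched letters in capitals.
Crb3: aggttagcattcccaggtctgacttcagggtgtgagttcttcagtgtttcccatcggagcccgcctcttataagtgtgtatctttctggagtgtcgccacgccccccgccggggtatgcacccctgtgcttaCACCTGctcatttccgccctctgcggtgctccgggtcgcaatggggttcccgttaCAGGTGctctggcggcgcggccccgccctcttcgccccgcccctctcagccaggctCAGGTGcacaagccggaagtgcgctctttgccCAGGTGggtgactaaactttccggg
Lsr: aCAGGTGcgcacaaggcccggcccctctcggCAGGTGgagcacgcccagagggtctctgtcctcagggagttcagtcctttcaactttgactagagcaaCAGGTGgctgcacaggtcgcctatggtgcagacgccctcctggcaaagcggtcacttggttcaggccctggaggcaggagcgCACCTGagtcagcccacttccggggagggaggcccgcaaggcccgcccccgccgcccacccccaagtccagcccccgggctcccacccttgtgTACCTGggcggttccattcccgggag
Spint2: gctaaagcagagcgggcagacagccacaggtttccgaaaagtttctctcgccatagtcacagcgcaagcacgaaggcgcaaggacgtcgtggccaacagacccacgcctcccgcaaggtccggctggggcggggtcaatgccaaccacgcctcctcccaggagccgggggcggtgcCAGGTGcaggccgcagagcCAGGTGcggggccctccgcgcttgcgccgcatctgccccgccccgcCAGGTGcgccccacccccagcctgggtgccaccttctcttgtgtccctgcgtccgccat
Prkcz: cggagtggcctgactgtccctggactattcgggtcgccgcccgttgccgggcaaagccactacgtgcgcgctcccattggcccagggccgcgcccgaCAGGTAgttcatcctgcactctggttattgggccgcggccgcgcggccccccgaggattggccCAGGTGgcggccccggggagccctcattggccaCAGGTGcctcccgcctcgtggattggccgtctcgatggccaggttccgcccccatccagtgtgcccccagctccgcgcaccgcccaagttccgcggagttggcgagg
Krt7: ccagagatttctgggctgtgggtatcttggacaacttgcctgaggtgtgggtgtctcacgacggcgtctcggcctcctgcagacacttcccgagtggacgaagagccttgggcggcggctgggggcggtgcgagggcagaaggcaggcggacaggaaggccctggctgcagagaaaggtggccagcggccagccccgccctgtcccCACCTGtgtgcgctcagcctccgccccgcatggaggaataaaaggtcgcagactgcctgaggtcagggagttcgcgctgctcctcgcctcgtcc
Dsp: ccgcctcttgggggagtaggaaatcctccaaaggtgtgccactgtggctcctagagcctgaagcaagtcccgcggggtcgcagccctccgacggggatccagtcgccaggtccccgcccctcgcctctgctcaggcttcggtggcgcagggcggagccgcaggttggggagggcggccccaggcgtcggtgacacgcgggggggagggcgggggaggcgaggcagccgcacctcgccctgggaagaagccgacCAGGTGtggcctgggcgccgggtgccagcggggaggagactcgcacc
The Lsr window holds 5 matches, Crb3 4, Spint2 and Prkcz 3 each, and Krt7 and Dsp 1 each. Only windows with a match are shown. The listed windows of Krt14, Nes and Spint1, also at least 2-fold higher in mimetic, hold 0 matches. Prkcz has further windows, of which that starting at 155345740 holds 0 and that at 155344700 holds 1. Crb3 has a further window, starting at 57061981, that also holds 4. A match is a description of the letters and not evidence of binding.

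Library totals were 24356697 to 27457818 counts in mimetic and 28402017 to 35773638 in WT. Over the 6 libraries, component 1 of a principal component analysis held 69.8% of the variance and separated the lines. Mitochondrially encoded genes took 0.496% ± 0.0122 of counts in mimetic and 0.412% ± 0.015 in WT (SD, n = 3 each). Of 6 epithelial markers, 5 were in the table (Cdh1, Cldn7, Krt19, Krt8 and Krt18), and they summed to 5240 to 5390 CPM in mimetic and 4110 to 4260 CPM in WT, so epithelial markers were present in both lines. Of 4 fibroblast markers, 2 (Pdgfra and Col1a1) were in the table and summed to 2.07 to 2.66 CPM in mimetic and 0.792 to 1.25 CPM in WT. The endothelial markers Vwf and Pecam1, 2 of 4, summed to 0.859 to 1.16 CPM in mimetic and 0.312 to 0.677 CPM in WT. The other markers of these cell types and those of alveolar, airway and immune cells fixed for this check were not analysed here.

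Zeb1 RNA (GRCm38, chromosome 18, 5591860 to 5775467) checked the comparison first. It had 214, 234 and 236 CPM in the mimetic libraries, against 245, 249.97 and 236 CPM in the WT libraries (log2 fold change -0.10, SE 0.05, adjusted p = 0.14, quasi-likelihood test of edgeR). The highest mimetic and the lowest WT value were nearly equal, and the difference did not pass the threshold. In the fit of the 6 compared libraries alone nearly the same difference, -0.0956, passed it (adjusted p = 0.0384). Mean Zeb1 levels were 484 CPM in deficient and 31.3 CPM in vector, so the line labelled mimetic, like WT, stood far above vector. The counts mix the resident gene with any introduced transcript that carries a countable 3′ end, and protein was not measured.

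Of the 12027 tested genes, 5398 (44.9%) differed between mimetic and WT at an adjusted p under 0.05, with 2780 (23.1%) higher and 2618 (21.8%) lower in mimetic. Most called differences were small: 4126 of them (76.4%) were under 1.5-fold, and the median size was 0.331 on the log2 scale. The larger differences were mostly rises. At 2-fold or more, 576 genes (4.79%) were higher and 99 (0.823%) lower, 5.61% together, and at 4-fold or more 201 were higher and 12 lower. With scaling by library size alone, 63.9% of calls were higher in place of 51.5%, 3506 higher and 1980 lower. In 56.7% of genes the 3 mimetic and 3 WT values did not overlap. Counts of list members and non-overlap of single genes below stand beside these shares over all tested genes.

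**Figure D1:**
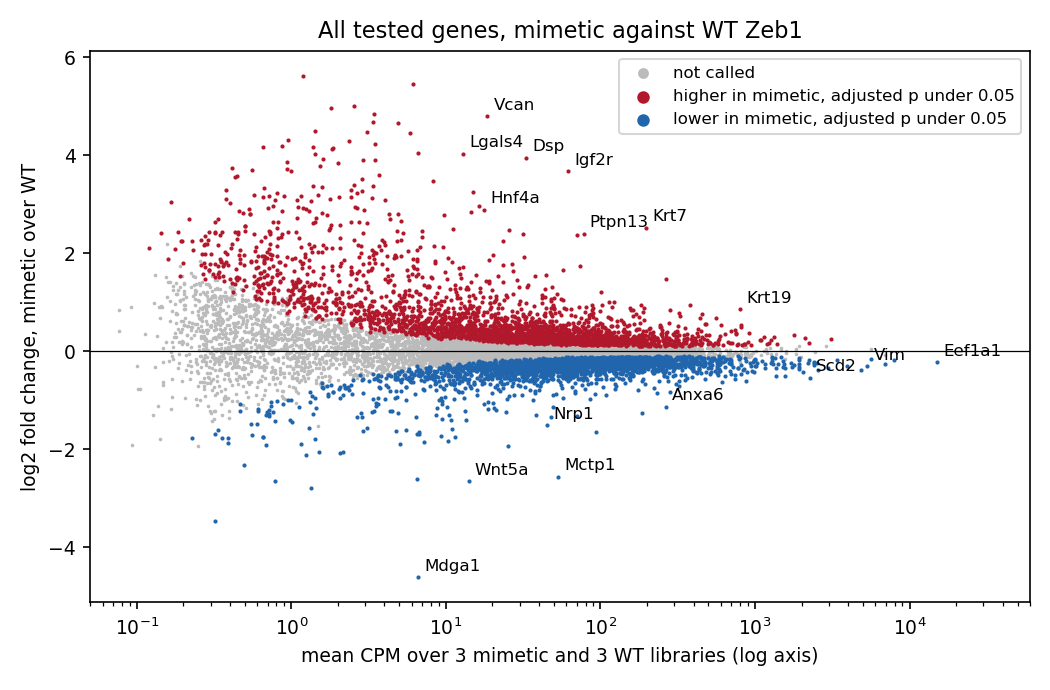
Log2 fold change of mimetic over WT (vertical axis) against mean CPM over the 6 libraries (horizontal, log axis) for all 12027 tested genes, red for called higher and blue for called lower in mimetic. Differences of 2-fold or more were called higher in 576 genes and lower in 99, and they lie mostly at low levels.

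The excess of higher genes depended on level. Among the 1088 genes with a mean under 1 CPM over the 4 lines, the median log2 fold change was 0.38, with 170 called higher and 35 lower. Between 1 and 5 CPM the median was 0.227, with 359 higher and 101 lower of 1237 genes. At 100 CPM and more it was -0.0576, with 516 higher and 910 lower of 2406, of which 7 were at least 2-fold higher and 5 at least 2-fold lower. WT had the lowest mean of the 4 lines in 45.1% of genes under 1 CPM and in 23% of genes at 100 CPM and more. The plot of fold change against level shows this slope as a fan of red points at low CPM. Mimetic libraries were the shallower ones. Every gene in the table has at least 1 count in each of the 12 libraries, so genes with no count in a library are not analysed here.

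**Figure D2:**
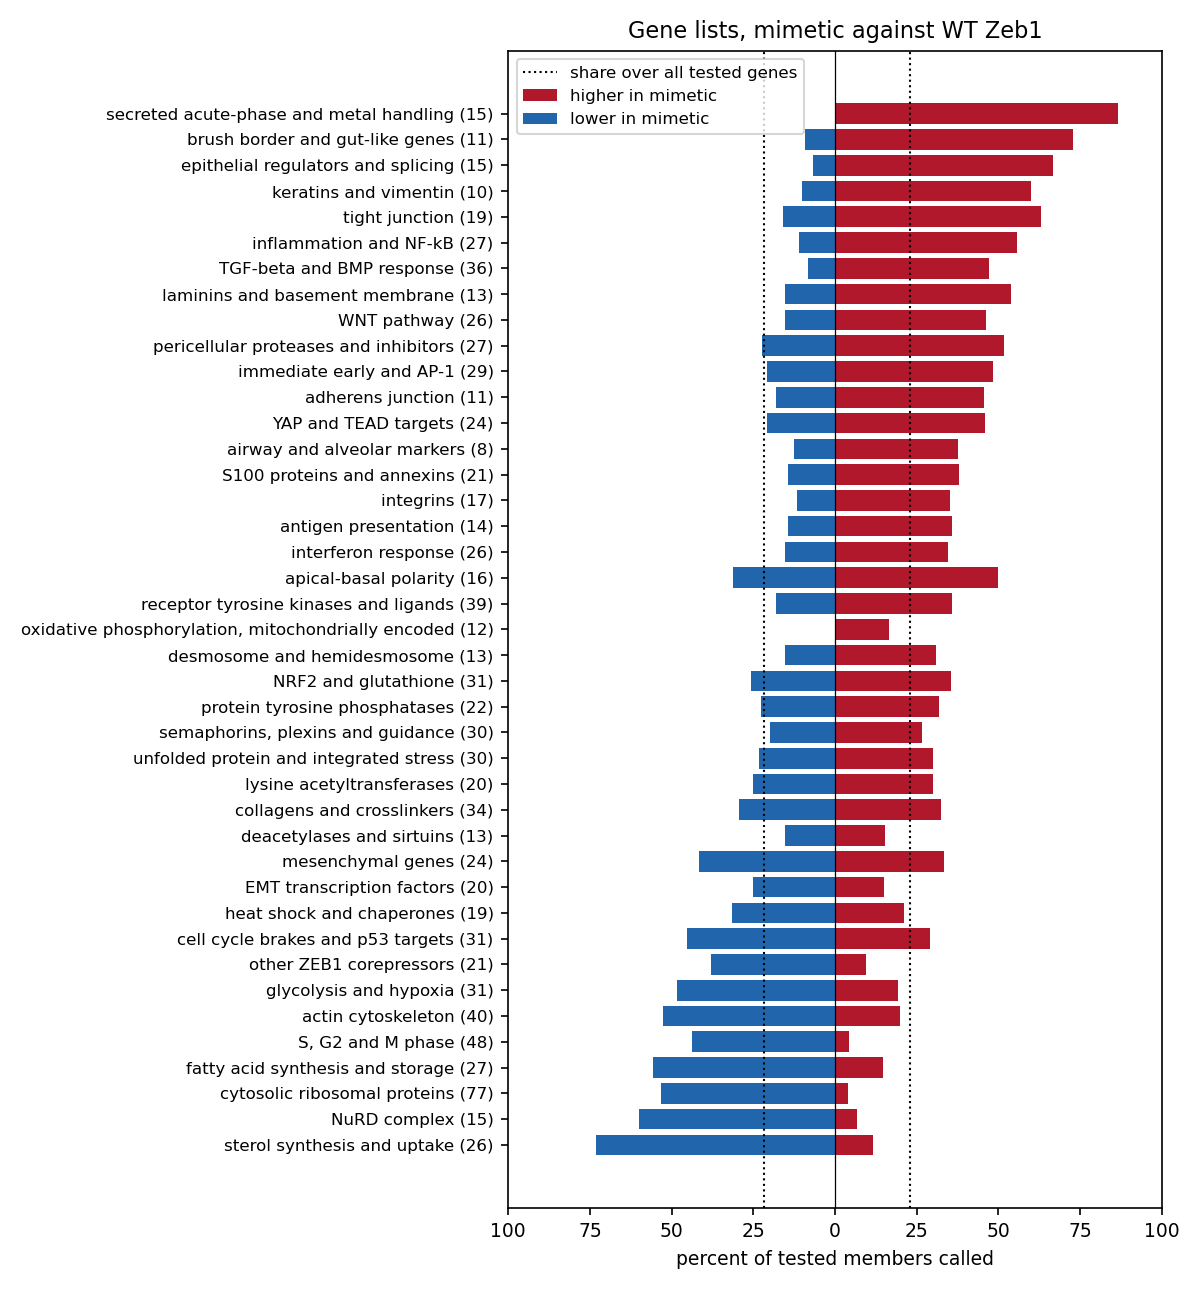
Share of tested members (horizontal axis, percent) called higher in mimetic (red, to the right) or lower (blue, to the left) for lists with at least 8 tested members, whose number stands in brackets, with dotted lines at the shares over all tested genes (23.1% and 21.8%). Secreted, brush-border and epithelial regulator lists lie furthest to the right, and sterol, NuRD and fatty acid lists furthest to the left.

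Desmosomes anchor keratin filaments at cell contacts, and their linker Dsp differed most among the junction genes listed. Dsp (GRCm38, chromosome 13, 38151294 to 38198577) had 59.5, 63.4 and 62.4 CPM in the mimetic libraries, against 3.88, 4.27 and 3.77 CPM in the WT libraries (log2 fold change 3.95, SE 0.07, adjusted p = 1.31e-19). No mimetic value came near a WT value, a 15.4-fold difference. The mean Dsp level was 144 CPM in deficient and 111 CPM in vector, so mimetic lay between WT and those lines. Pkp1, a plakophilin that strengthens desmosomes, averaged 6.6 ± 0.626 CPM in mimetic and 1.47 ± 0.43 CPM in WT (SD, n = 3 each). Perp, a desmosomal membrane protein, averaged 64.7 ± 3.75 CPM in mimetic and 35.3 ± 2.61 CPM in WT. Itgb4, the integrin chain of hemidesmosomes, averaged 60.3 ± 1.63 CPM in mimetic and 35.6 ± 2.47 CPM in WT. In all 3 the mimetic libraries lay above the WT libraries with no overlap. Of 13 desmosome and hemidesmosome genes tested, these 4 were higher and 2 lower, with a list median of 0.0797 (0.13 after centring) against 0.0085 over all tested genes. One lower member was the plakophilin Pkp2, at 40.9 CPM in mimetic and 52.8 CPM in WT, and the other the integrin chain Itga6, at 749 CPM in mimetic and 805 CPM in WT.

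At adherens junctions, E-cadherin (Cdh1, GRCm38, chromosome 8, 106603351 to 106670246) had 263, 296 and 301 CPM in the mimetic libraries, against 202, 199.6 and 194 CPM in the WT libraries (log2 fold change 0.53, SE 0.05, adjusted p = 2.31e-08). The groups did not overlap, and the 1.45-fold difference left mimetic below the means of 445 CPM in deficient and 670.1 CPM in vector. Plakoglobin (Jup), shared by adherens junctions and desmosomes, averaged 83.6 ± 4.81 CPM in mimetic and 62.7 ± 1.45 CPM in WT. The nectin Nectin2, a cell adhesion receptor, averaged 82.4 ± 2.74 CPM in mimetic and 68.7 ± 1.8 CPM in WT. Plekha7 links cadherin complexes to microtubules and went against these, at 28.7 CPM in mimetic and 39.5 CPM in WT. In all, 5 of 11 adherens junction genes were higher and 2 lower, with a median of 0.171.

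Tight junctions seal the spaces between epithelial cells, and 12 of 19 of their genes were higher in mimetic and 3 lower (median 0.441), 5 of them at least 2-fold higher. The receptor Lsr, which marks corners where 3 cells meet, had 20.3, 20 and 22.8 CPM in the mimetic libraries, against 7.11, 7.95 and 8.65 CPM in the WT libraries (log2 fold change 1.41, SE 0.09, adjusted p = 9.79e-11). Its mimetic values were all above its WT values and below the means of 41.6 CPM in deficient and 45.2 CPM in vector. F11r, an immunoglobulin-type adhesion molecule, averaged 139 ± 3.27 CPM in mimetic and 85.3 ± 1.64 CPM in WT. The claudin Cldn3, a barrier-forming strand protein, averaged 26.3 ± 1.81 CPM in mimetic and 12.3 ± 0.703 CPM in WT. Cxadr, an adhesion molecule used by viruses as a receptor, averaged 69.3 ± 1.57 CPM in mimetic and 41.3 ± 1.68 CPM in WT. None of these 3 overlapped between the lines. The lower members included Cldn9, another claudin, at 0.969 CPM in mimetic and 1.88 CPM in WT. With the level of each gene set relative to its block of 50 neighbours on the chromosome, called centring below and chosen after the regional shifts described last were seen, 11 tight junction genes were higher and 1 lower.

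Apical-basal polarity genes were mixed: 8 of 16 were higher and 5 lower (median 0.292), and 3 were at least 2-fold higher. After centring 7 were higher and 5 lower, and the median was 0.0748. Crb3, a small apical membrane protein (GRCm38, chromosome 17, 57059105 to 57065918), had 2.11, 2.09 and 1.45 CPM in the mimetic libraries, against 0.381, 0.226 and 0.249 CPM in the WT libraries (log2 fold change 2.72, SE 0.31, adjusted p = 6.18e-07). These are low levels, and the values did not overlap. Prkcz, an atypical protein kinase C of the Par complex, had 8.93, 7.17 and 9.63 CPM in the mimetic libraries, against 1.49, 1.02 and 1.21 CPM in the WT libraries (log2 fold change 2.80, SE 0.16, adjusted p = 1.54e-11). Its mimetic values were all higher, and its means were 21.8 CPM in deficient and 23.1 CPM in vector. Patj, a Crumbs complex scaffold, was 1.63-fold higher. Lin7c, another scaffold, was 1.32-fold higher. The basolateral genes went both ways: Scrib (-0.24 on the log2 scale), Dlg1 (-0.30) and Llgl1 (-0.34) were lower, whereas Llgl2, a relative of Llgl1, was higher (1.24). These 4 were picked after their values were seen.

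Keratins are the intermediate filaments of epithelial cells and vimentin that of mesenchymal cells. Krt7 (GRCm38, chromosome 15, 101411043 to 101430313) had 341, 324 and 345 CPM in the mimetic libraries, against 60.1, 56.2 and 60.2 CPM in the WT libraries (log2 fold change 2.52, SE 0.05, adjusted p = 1.12e-18), with means of 762 CPM in deficient and 866 CPM in vector. Krt19 had 1023, 1042 and 1019 CPM in the mimetic libraries, against 577, 562 and 571 CPM in the WT libraries (log2 fold change 0.85, SE 0.05, adjusted p = 4.69e-11). Neither keratin's groups overlapped, and Krt19 had the largest gain in CPM among called genes outside mitochondrial and ribosomal protein genes. Krt8 averaged 1982 ± 39.1 CPM in mimetic and 1587 ± 36.7 CPM in WT. Its partner Krt18, at 1997 ± 50.9 CPM in mimetic and 1846 ± 39.5 CPM in WT, was not called (adjusted p = 0.0696). Nestin (Nes) is a filament of progenitor cells and averaged 43.2 ± 2.38 CPM in mimetic and 7.74 ± 0.273 CPM in WT. The mesenchymal filament went the other way. Vimentin (Vim, GRCm38, chromosome 2, 13573927 to 13582826) had 4724, 4753 and 4815 CPM in the mimetic libraries, against 5995, 5654 and 5964 CPM in the WT libraries (log2 fold change -0.30, SE 0.05, adjusted p = 1.90e-05), and averaged 3940.2 CPM in deficient and 5356 CPM in vector. Of the 10 genes of this list, 6 were higher and 1, Vim, was lower, with a median of 0.422.

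Regulators of epithelial identity were higher in 10 of 15 and lower in 1 (median 0.528; 11 and 1 after centring). Spint2, an inhibitor of membrane serine proteases, had 42.3, 42.7 and 41.8 CPM in the mimetic libraries, against 17.7, 17.9 and 15.6 CPM in the WT libraries (log2 fold change 1.31, SE 0.07, adjusted p = 8.37e-12). Mimetic values of Spint2 exceeded WT values without overlap, and its means were 82.4 CPM in deficient and 144 CPM in vector. Klf5, a zinc-finger regulator of epithelial growth, averaged 111 ± 5.43 CPM in mimetic and 68.6 ± 1.29 CPM in WT. The tetraspanin Tspan1 averaged 7.46 ± 1.11 CPM in mimetic and 1.9 ± 0.42 CPM in WT. Esrp2, which directs epithelial splicing, averaged 25.8 ± 0.678 CPM in mimetic and 13 ± 0.502 CPM in WT. The lower member was the forkhead factor Foxa2, at 73.1 CPM in mimetic and 86.2 CPM in WT.

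**Figure D3:**
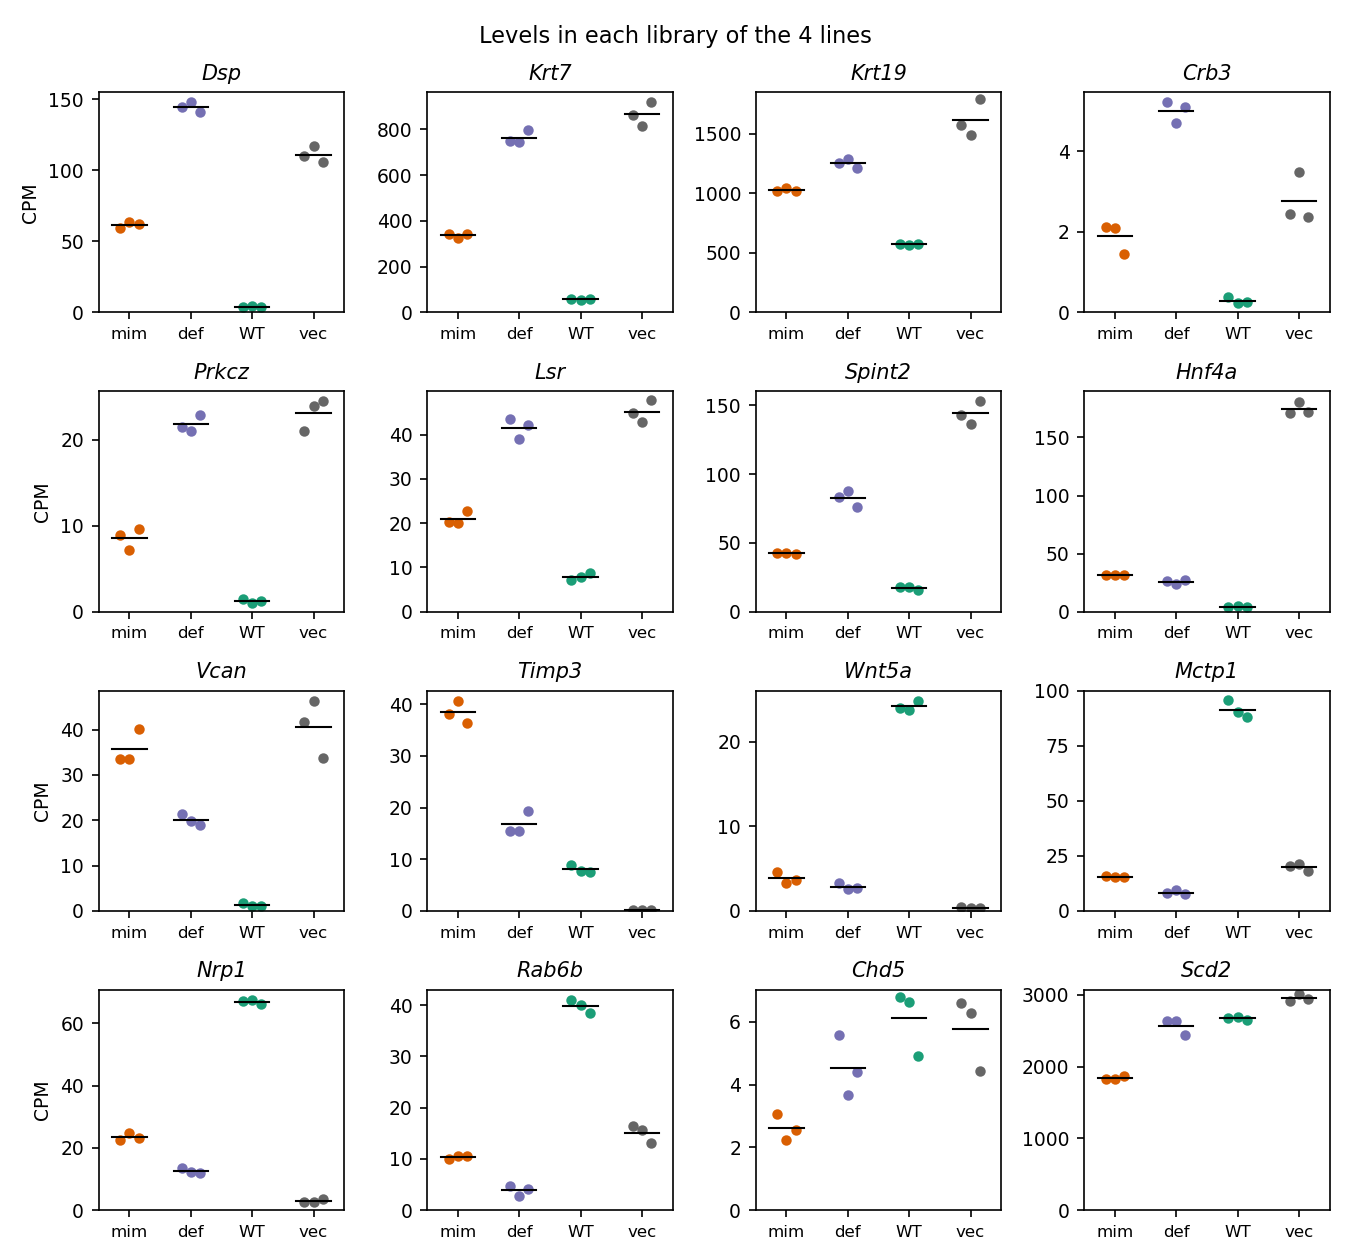
CPM (vertical axes, from 0) in each library of the mimetic (mim), deficient (def), WT and vector (vec) lines for 16 genes, with 1 point per library and a bar at the mean of 3. Dsp, Krt7, Krt19, Crb3, Prkcz, Lsr, Spint2, Hnf4a, Vcan and Timp3 stand higher in mimetic than in WT, and Wnt5a, Mctp1, Nrp1, Rab6b, Chd5 and Scd2 lower, with no overlap between the 3 mimetic and the 3 WT points.

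E-box letters were held by a larger share of the genes that rose at least 2-fold than of genes not called. Of 416 such genes with a RefSeq promoter, 175 (42.1%, Wilson 95% interval 37.4 to 46.9%) held CAGGTG or CAGGTA in any of their promoters, against 27.9% of 5203 genes not called (26.7 to 29.1%). Over all 2179 genes called higher the share was 31.3% (29.3 to 33.2%), and over all 2038 called lower it was 25.4% (23.6 to 27.4%). Among genes at least 2-fold lower the share was 26.9% of 67 (17.7 to 38.5%), and it was 29.5% over all 32851 promoters listed. The share also moved with level. Under a mean of 5 CPM it was 41.9% of 277 genes at least 2-fold higher (36.2 to 47.8%) and 35% of 1172 not called (32.3 to 37.8%). These intervals overlap, which does not show the shares to be equal. From 5 CPM up the share was 42.4% of 139 genes at least 2-fold higher (34.5 to 50.8%) and 25.8% of 4031 not called (24.5 to 27.2%). The part of level or of base composition in these shares was not tested. A set of 19 genes was looked at, which were Cdh1 and the members at least 2-fold higher in the 6 epithelial lists, Nes included. Of these, 15 had a promoter listed, Cdh1 not among them, and 12 of the 15 held a match.

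Genes of intestinal differentiation were also higher. Hnf4a, a nuclear receptor of gut and liver, had 31.1, 31.2 and 31.2 CPM in the mimetic libraries, against 4.09, 4.5 and 3.99 CPM in the WT libraries (log2 fold change 2.89, SE 0.08, adjusted p = 2.00e-16), and averaged 25.8 CPM in deficient and 174 CPM in vector. Lgals4, a galectin of gut epithelium, had 25.4, 22.7 and 24.4 CPM in the mimetic libraries, against 1.32, 1.5 and 1.6 CPM in the WT libraries (log2 fold change 4.03, SE 0.11, adjusted p = 2.00e-16), and averaged 24 CPM in deficient and 135 CPM in vector. For both genes mimetic stood above WT in every library and far below the vector mean. The mucin glycosyltransferase Gcnt3 averaged 41.2 ± 0.901 CPM in mimetic and 12 ± 1.28 CPM in WT. The galectin Lgals2 averaged 15 ± 1.03 CPM in mimetic and 5.38 ± 0.519 CPM in WT. Of 11 brush-border and gut-like genes, 8 were higher, 5 of them at least 2-fold, and the peptidase Anpep was lower, at 14 CPM in mimetic and 17.4 CPM in WT; the median was 1.07, and 1.65 among the 8 members with at least 5 CPM in 3 libraries.

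Of 8 airway and alveolar genes, 3 were higher and 1 lower (median 0.155). The median of so few genes ran from -0.033 without WT replicate 2 and 0.0379 without mimetic replicate 3 to 0.293 without WT replicate 1 and 0.316 without mimetic replicate 1. It was 0.25 after centring and 0.844 among the 4 members with at least 5 CPM in 3 libraries. Aqp5, a water channel of alveolar and gland cells, averaged 114 ± 3.11 CPM in mimetic and 34.1 ± 2.89 CPM in WT. Muc5b, a secreted airway mucin, averaged 36.3 ± 4.94 CPM in mimetic and 10.7 ± 1.61 CPM in WT. The membrane mucin Muc4 stood at 0.662 CPM in mimetic and 0.15 CPM in WT, and its call ended without mimetic replicate 2 (adjusted p = 0.0543) and in limma-voom (adjusted p = 0.0966). Caveolin Cav1, a marker of flat alveolar cells, was the lower member, at 342 CPM in mimetic and 430.5 CPM in WT.

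Secreted proteins and metal transporters were higher in 13 of 15 and lower in 0 (median 0.783), 7 of them at least 2-fold. Clusterin (Clu), an extracellular chaperone, had 385, 389 and 399 CPM in the mimetic libraries, against 144, 142 and 136 CPM in the WT libraries (log2 fold change 1.48, SE 0.04, adjusted p = 4.43e-16). Every mimetic library exceeded every WT library in Clu, and the same held for the next 3 genes. Ceruloplasmin (Cp), a copper-carrying ferroxidase, averaged 64.9 ± 3.93 CPM in mimetic and 30.9 ± 2.12 CPM in WT. Selenop, the plasma selenium carrier, averaged 11.8 ± 0.477 CPM in mimetic and 2.32 ± 0.145 CPM in WT. Wfdc2, a secreted antiprotease, averaged 334 ± 12.8 CPM in mimetic and 225 ± 1.87 CPM in WT.

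Mesenchymal genes went both ways. Of 24 tested, 10 were lower and 8 higher, with a median of -0.142. Wnt5a, a non-canonical WNT ligand (GRCm38, chromosome 14, 28504750 to 28527448), had 4.63, 3.25 and 3.65 CPM in the mimetic libraries, against 23.9, 23.8 and 24.8 CPM in the WT libraries (log2 fold change -2.66, SE 0.13, adjusted p = 1.83e-12). That 6.31-fold fall was the largest of the list. N-cadherin (Cdh2), named after its values were seen, averaged 39.1 ± 2.67 CPM in mimetic and 75.7 ± 2.02 CPM in WT. The neural adhesion molecule Ncam1 had 14.6, 18.1 and 18.4 CPM in the mimetic libraries, against 2.98, 1.98 and 2.6 CPM in the WT libraries (log2 fold change 2.77, SE 0.13, adjusted p = 8.84e-13). Ncam1 thus rose where N-cadherin fell, and 4 matrix-related members rose with it. Connective tissue growth factor (Ctgf) averaged 140.3 ± 10.1 CPM in mimetic and 60.4 ± 3.13 CPM in WT. The membrane protease Mmp14, which cuts collagen, averaged 101 ± 3.27 CPM in mimetic and 58 ± 1.12 CPM in WT. The crosslinking enzyme Loxl2 averaged 33.9 ± 1.25 CPM in mimetic and 15.7 ± 0.912 CPM in WT. Timp1, an inhibitor of metalloproteinases, lies in a block of chromosome X described last in which nearly every gene was higher. It averaged 116 ± 6.3 CPM in mimetic and 60.5 ± 2.3 CPM in WT. Pdgfra, a fibroblast marker also in this list, stood at 0.647 CPM in mimetic and 0.232 CPM in WT, and its call ended without WT replicate 2 (adjusted p = 0.0525).

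Transcription factors of EMT, Zeb1 included, were higher in 3 of 20 and lower in 5 (median 0.0528), beside 23.1% and 21.8% of all tested genes. Without mimetic replicate 1, 2 were higher and 3 lower, with a median of 0.107. Without mimetic replicate 3 the sign of the median turned, to -0.0174, with 2 higher and 5 lower. It was 0.0201 without WT replicate 2. Zeb2, the paralogue of Zeb1, had 52.4, 54 and 54.1 CPM in the mimetic libraries, against 70.8, 74.4 and 71.6 CPM in the WT libraries (log2 fold change -0.43, SE 0.06, adjusted p = 9.52e-06). The groups did not overlap. The ETS factor Etv4 averaged 116 ± 7.09 CPM in mimetic and 158 ± 4.9 CPM in WT. Foxq1, a forkhead factor, was higher, at 12 ± 0.261 CPM in mimetic and 7.12 ± 0.618 CPM in WT. Runx1 was also higher, at 54.1 ± 3.41 CPM in mimetic and 41.7 ± 2.72 CPM in WT. Snai2, at 11.6 CPM in mimetic and 11.2 CPM in WT, was not called (adjusted p = 0.667).

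In the WNT pathway 12 of 26 genes were higher and 4 lower (median 0.0751), 7 of them at least 2-fold higher and 1, Wnt5a, at least 2-fold lower. The median was 0.118 without mimetic replicate 1, 0.13 without WT replicate 2 and 0.146 after centring, and the lower members numbered 2 without mimetic replicate 1, mimetic replicate 2 or WT replicate 2. The ligand Wnt4 had 16.3, 14.1 and 14 CPM in the mimetic libraries, against 5.58, 4.19 and 4.66 CPM in the WT libraries (log2 fold change 1.62, SE 0.13, adjusted p = 2.41e-09). The ligand Wnt7a averaged 5.69 ± 1.17 CPM in mimetic and 1.4 ± 0.353 CPM in WT. The receptor Fzd6 averaged 18.7 ± 1.88 CPM in mimetic and 5.73 ± 0.67 CPM in WT. Wnt5a thus fell while these ligands and this receptor rose. TGF-beta and BMP genes were higher in 17 of 36 and lower in 3 (median 0.171; 20 and 3 after centring). Tgfbr3, the co-receptor betaglycan, had 6.14, 5.97 and 5.49 CPM in the mimetic libraries, against 0.104, 0.283 and 0.392 CPM in the WT libraries (log2 fold change 4.47, SE 0.26, adjusted p = 2.55e-11). The WT values were near the lower end of the table and far from those of mimetic. Ltbp2, of the family that holds latent TGF-beta in the matrix, averaged 6.14 ± 0.795 CPM in mimetic and 0.584 ± 0.175 CPM in WT. Id1, an inhibitor of bHLH factors and a target of BMP signalling, averaged 201 ± 9.98 CPM in mimetic and 112 ± 6.38 CPM in WT. Id2, of the same family, averaged 62.2 ± 2.11 CPM in mimetic and 33.9 ± 0.689 CPM in WT. The lower members included Inhba, a subunit of activins, at 6.73 CPM in mimetic and 10.6 CPM in WT, and the activin receptor Acvr2b, at 3.81 CPM in mimetic and 5.51 CPM in WT; both were named after their values were seen.

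Of 34 collagen and crosslinker genes, 11 were higher and 10 lower (median 0.307; 11 and 6 after centring). Among the 20 members with at least 5 CPM in 3 libraries the direction of the median turned, with 5 higher and 10 lower and a median of -0.111. The collagen VI chain Col6a1 averaged 29.8 ± 0.0961 CPM in mimetic and 8.23 ± 0.705 CPM in WT. Its partner chain Col6a2 averaged 8.16 ± 1.3 CPM in mimetic and 2.12 ± 0.392 CPM in WT. Among crosslinking enzymes Loxl2 was higher, as above, while Loxl3 fell to 6.01 ± 0.454 CPM in mimetic, against 14.9 ± 1.2 CPM in WT. The basement membrane collagens, named after their values were seen, were lower: Col4a1 fell to 476 CPM in mimetic, against 670.2 CPM in WT. Col4a2, its partner chain, fell to 210.5 CPM in mimetic, against 270.5 CPM in WT. Laminins and basement membrane genes were higher in 7 of 13 and lower in 2 (median 0.367). The median was 0.0969 without mimetic replicate 3, 0.204 without WT replicate 2 and 0.177 without WT replicate 3, with 6 higher and 2 lower in each case, and 0.21 among the 11 members with at least 5 CPM in 3 libraries. Lamb3, a chain of an epithelial laminin, averaged 61.5 ± 3.13 CPM in mimetic and 25.7 ± 2.51 CPM in WT. Nidogen Nid1, which links laminin to collagen, averaged 59.9 ± 3.49 CPM in mimetic and 27.7 ± 2.57 CPM in WT. In both genes the lines did not overlap. Integrins were higher in 6 of 17 and lower in 2 (median 0.228). Their median was 0.0879 without mimetic replicate 3, 0.126 without WT replicate 3 and 0.126 among the 11 members with at least 5 CPM in 3 libraries, and by library size alone 8 were higher and 0 lower. Itga3, a laminin receptor chain, averaged 507 ± 26 CPM in mimetic and 383 ± 9.14 CPM in WT. Itgb3, a chain of vitronectin receptors, averaged 57.3 ± 3.1 CPM in mimetic and 37.2 ± 0.908 CPM in WT. Versican (Vcan), a large matrix proteoglycan and among the 15 largest rises of all genes, had 33.5, 33.5 and 40.2 CPM in the mimetic libraries, against 1.7, 1.16 and 0.997 CPM in the WT libraries (log2 fold change 4.80, SE 0.16, adjusted p = 4.46e-15).

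Pericellular proteases and inhibitors were higher in 14 of 27 and lower in 6 (median 0.324, and 0.202 after centring). Timp3, a matrix-bound metalloproteinase inhibitor, had 38.2, 40.6 and 36.4 CPM in the mimetic libraries, against 8.95, 7.72 and 7.58 CPM in the WT libraries (log2 fold change 2.25, SE 0.11, adjusted p = 1.91e-12), and averaged 16.7 CPM in deficient and 0.2 CPM in vector. Mimetic held the highest mean Timp3 of the 4 lines. The serine protease Htra1 averaged 240.5 ± 6.17 CPM in mimetic and 124 ± 5.31 CPM in WT. Among the lower members, the sheddase Adam9, named after its values were seen, stood at 602 CPM in mimetic and 892 CPM in WT.

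Receptor tyrosine kinases and their ligands were higher in 14 of 39 and lower in 7 (median 0.127, and 0.0644 without WT replicate 2), 4 of them at least 2-fold higher. The collagen receptor Ddr2 had 7.58, 6.5 and 7.47 CPM in the mimetic libraries, against 0.867, 0.849 and 0.819 CPM in the WT libraries (log2 fold change 3.08, SE 0.16, adjusted p = 3.14e-12). Its groups did not overlap, nor did those of the next 3 genes. Egfr, the epidermal growth factor receptor, averaged 11.1 ± 0.734 CPM in mimetic and 4.35 ± 0.82 CPM in WT. Fgfbp1, a carrier of fibroblast growth factors, averaged 5.27 ± 0.675 CPM in mimetic and 0.854 ± 0.175 CPM in WT. Kit ligand (Kitl) fell to 166 ± 7.86 CPM in mimetic, against 280.2 ± 12.4 CPM in WT. Protein tyrosine phosphatases were higher in 7 of 22 and lower in 5 (median 0.146), beside 23.1% and 21.8% of all tested genes. After centring 5 were higher and 3 lower, with a median of 0.0573, and by library size alone 12 were higher and 3 lower. Without WT replicate 1 the median was 0.0967, with 7 higher and 3 lower, and without mimetic replicate 1 the counts were 8 higher and 3 lower. Ptpn13 had 123, 134 and 134 CPM in the mimetic libraries, against 25.5, 24.4 and 24.4 CPM in the WT libraries (log2 fold change 2.40, SE 0.07, adjusted p = 2.58e-16), with means of 175 CPM in deficient and 2.24 CPM in vector. Ptpn14, a phosphatase that binds YAP, averaged 53.6 ± 5.29 CPM in mimetic and 32.2 ± 1.96 CPM in WT. Guidance genes were higher in 8 of 30 and lower in 6 (median -0.0114), beside 23.1% and 21.8% of all tested genes. The semaphorin and VEGF co-receptor Nrp1 had 22.5, 24.9 and 23 CPM in the mimetic libraries, against 67.2, 67.6 and 66.3 CPM in the WT libraries (log2 fold change -1.51, SE 0.08, adjusted p = 8.53e-12), and averaged 12.6 CPM in deficient and 2.94 CPM in vector. WT was the highest of the 4 lines in Nrp1. The guidance cue Slit2 averaged 27.8 ± 1.88 CPM in mimetic and 13.6 ± 1.14 CPM in WT. Sema6d, a membrane semaphorin, fell to 28.7 ± 1.94 CPM in mimetic, against 45 ± 1.11 CPM in WT.

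NuRD subunits were lower in 9 of 15 and higher in 1 (median -0.127), those called other than Chd5 by less than 1.5-fold. Chd5, a remodeller best known in neurons, had 3.07, 2.24 and 2.55 CPM in the mimetic libraries, against 6.8, 6.65 and 4.91 CPM in the WT libraries (log2 fold change -1.23, SE 0.20, adjusted p = 4.93e-05). Its mimetic values were all below its WT values, at low levels. Chd3, a remodeller, averaged 252 ± 8.42 CPM in mimetic and 313 ± 9.8 CPM in WT (adjusted p = 4.56e-06). Chd4, the related ATPase, averaged 596 ± 1.28 CPM in mimetic and 650.2 ± 0.891 CPM in WT (adjusted p = 0.00756). The deacetylase Hdac1 averaged 46.4 ± 1.07 CPM in mimetic and 55.7 ± 0.831 CPM in WT (adjusted p = 0.0022). Each of these 3 was lower in every mimetic library than in any WT library. The deacetylase Hdac2 averaged 161 ± 5.29 CPM in mimetic and 176 ± 9.45 CPM in WT (adjusted p = 0.0386). Rbbp7, a histone chaperone, averaged 360.1 ± 17.5 CPM in mimetic and 435 ± 3.77 CPM in WT (adjusted p = 2.41e-05). Rbbp4, its close relative, averaged 177 ± 5.65 CPM in mimetic and 195 ± 5.12 CPM in WT (adjusted p = 0.0106). The scaffolds split. Gatad2a fell to 197 ± 8.1 CPM in mimetic, against 233 ± 9.14 CPM in WT. Gatad2b rose to 51.5 ± 6.19 CPM in mimetic, against 35.4 ± 1.03 CPM in WT. Mta2, a histone-tail binding scaffold, averaged 411 ± 10.3 CPM in mimetic and 445 ± 11.6 CPM in WT (adjusted p = 0.0293). Not called were Mta1 (0.07), Mta3 (0.02), the methyl-DNA binding subunits Mbd2 (0.04) and Mbd3 (0.07), and Cdk2ap1 (0.17, all log2 fold changes).

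Part of the NuRD calls changed when chromosomal position was taken into account. After centring, 5 subunits were lower and 0 higher, and the median was -0.000773. Still lower were Chd5 (adjusted p = 0.000277), Chd3 (adjusted p = 0.000157), Hdac1 (adjusted p = 0.0287), Hdac2 (adjusted p = 0.0146) and Rbbp7 (adjusted p = 0.0052). Chd4 then had a log2 fold change of 0.0946 (adjusted p = 0.0619), the other direction. Mta2 likewise turned, to 0.0559 (adjusted p = 0.321). The calls for Gatad2a (adjusted p = 0.723), Gatad2b (adjusted p = 0.1) and Rbbp4 (adjusted p = 0.26) ended. The call for Mta2 also ended in 4 of the 6 fits that left out a library each (adjusted p up to 0.107). That for Hdac2 ended in 4 of the 6 as well (adjusted p up to 0.192), and that for Rbbp4 without mimetic replicate 3 (adjusted p = 0.0572). By library size alone 1 subunit was higher and 5 lower.

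Other corepressors linked to ZEB1 were lower in 8 of 21 and higher in 2 (median -0.107; after centring 5 lower and 3 higher, median -0.0173). Rcor2, a CoREST scaffold, had 27.6, 26.6 and 28 CPM in the mimetic libraries, against 48.9, 48.7 and 46.8 CPM in the WT libraries (log2 fold change -0.81, SE 0.07, adjusted p = 1.69e-08). The groups of Rcor2 did not overlap, and its relative Rcor1 went the other way. Rcor1 averaged 62.4 ± 2.84 CPM in mimetic and 49.1 ± 2.31 CPM in WT. Ctbp1, a corepressor through which ZEB1 is known to act, stood at 185 CPM in mimetic and 181 CPM in WT and was not called. Ctbp2, its relative, stood at 86.6 CPM in mimetic and 86.1 CPM in WT and was not called either. Sin3b, a deacetylase scaffold, fell to 108 CPM in mimetic, against 134 CPM in WT, a call that centring ended (adjusted p = 0.0627). The DNA methyltransferase Dnmt1 fell to 369.6 CPM in mimetic, against 427 CPM in WT, and its call ended likewise (adjusted p = 0.0762).

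Lysine acetyltransferases were higher in 6 of 20 and lower in 5 (median 0.0917), beside 23.1% and 21.8% of all tested genes. After centring 3 acetyltransferases were higher and 4 lower. Kat2b, known as PCAF, averaged 79.4 ± 4.94 CPM in mimetic and 111 ± 2.03 CPM in WT. Ep300, the p300 acetyltransferase, stood at 95 CPM in mimetic and 85.9 CPM in WT and was not called. Crebbp, its relative CBP, stood at 68.8 CPM in mimetic and 60.8 CPM in WT and was not called. Some of the higher members lost their call after centring: Nat10 (125 CPM in mimetic and 100.4 CPM in WT; adjusted p = 0.146 after it) and Esco2 (41.6 CPM in mimetic and 28.9 CPM in WT; adjusted p = 0.264 after it). Of 13 deacetylases and sirtuins outside NuRD, 2 were higher and 2 lower (median 0.0427). Hdac6, a cytoplasmic tubulin deacetylase on the chromosome X block, averaged 57.8 ± 4.5 CPM in mimetic and 31.6 ± 0.586 CPM in WT. Centring ended the calls for Hdac6, Hdac4, Hdac11 and Hdac5 (adjusted p = 0.157, 0.21, 0.136 and 0.0783). Other members were called after it, 3 higher and 2 lower, with a list median of 0.0269.

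Sterol synthesis and uptake genes had the largest share of lower members of the lists: 19 of 26 were lower and 3 higher (median -0.244; 18 and 2 after centring; 14 and 3 by library size alone). Msmo1, a sterol oxidase, had 127, 129 and 119.5 CPM in the mimetic libraries, against 175, 185 and 184 CPM in the WT libraries (log2 fold change -0.54, SE 0.05, adjusted p = 1.87e-08). The lines did not overlap in Msmo1 or in the next 2 genes. Nsdhl, which acts in the same demethylation step, averaged 25 ± 1.02 CPM in mimetic and 38 ± 1.2 CPM in WT. Acat2, an acetyl-CoA thiolase, averaged 51.3 ± 1.29 CPM in mimetic and 69.6 ± 2.41 CPM in WT. The higher members included Ebp, a sterol isomerase on the chromosome X block. Ebp averaged 94.1 ± 2.9 CPM in mimetic and 50.2 ± 2.16 CPM in WT. The squalene synthase Fdft1 was also higher, at 54.8 CPM in mimetic and 48.1 CPM in WT.

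Fatty acid genes were lower in 15 of 27 and higher in 4 (median -0.213). After centring 11 were lower and 6 higher, and the median was -0.106. The desaturase Scd2 had 1821, 1823 and 1872 CPM in the mimetic libraries, against 2683, 2695 and 2644 CPM in the WT libraries (log2 fold change -0.54, SE 0.04, adjusted p = 7.29e-10). Every mimetic library was below every WT library in Scd2. Fads1, which desaturates polyunsaturated fatty acids, averaged 129 ± 1.16 CPM in mimetic and 179.6 ± 0.905 CPM in WT. Acly, which makes cytosolic acetyl-CoA, averaged 348 ± 4.4 CPM in mimetic and 435 ± 4.56 CPM in WT. The elongase Elovl7 went the other way, at 46.1 ± 0.69 CPM in mimetic and 32.2 ± 1.99 CPM in WT.

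Glycolysis and hypoxia genes were lower in 15 of 31 and higher in 6 (median -0.147; 10 and 3 after centring). Triosephosphate isomerase (Tpi1) averaged 759 ± 10.6 CPM in mimetic and 1024 ± 7.05 CPM in WT. Pyruvate kinase (Pkm) averaged 3528 ± 45.7 CPM in mimetic and 4339 ± 85.1 CPM in WT. The oxygen sensor Egln3 averaged 21.9 ± 1.82 CPM in mimetic and 32.5 ± 1.59 CPM in WT. Vegfa, the hypoxia-induced angiogenic factor, was higher than in WT, while these 3 were lower. Vegfa averaged 172 ± 3.73 CPM in mimetic and 135 ± 2.43 CPM in WT. Gapdh fell to 495 CPM in mimetic, against 632 CPM in WT, a call that centring ended (adjusted p = 0.0541).

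Cell cycle genes that were called were mostly lower. Of 48 S, G2 and M phase genes 21 were lower and 2 higher (median -0.107), though by library size alone 17 were lower and 8 higher. The mitotic kinesin Kif20a averaged 123 ± 1.2 CPM in mimetic and 171 ± 1.17 CPM in WT. Mcm2, a subunit of the replicative helicase, averaged 293 ± 5.89 CPM in mimetic and 380.2 ± 4.28 CPM in WT. Thymidylate synthase (Tyms) was higher, at 119 ± 1.06 CPM in mimetic and 84.6 ± 2.95 CPM in WT. Cell cycle brakes and p53 targets were lower in 14 of 31 and higher in 9 (8 and 6 after centring), with a median of -0.0449 that was -0.119 without mimetic replicate 2 and -0.169 among the 29 members with at least 5 CPM in 3 libraries. Pmaip1, a p53 target that promotes apoptosis, stood at 2.28 CPM in mimetic and 0.298 CPM in WT. Rbl1, a pocket protein of the Rb family, stood at 113 CPM in mimetic and 145 CPM in WT.

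Ribosomal protein genes were lower in 41 of 77 and higher in 3 (median -0.153), and their summed share was 7.15% ± 0.0729 of counts in mimetic and 7.66% ± 0.0358 in WT. Rpl8 averaged 2614 ± 9.35 CPM in mimetic and 3328 ± 29.9 CPM in WT, and no called member differed by as much as 1.5-fold. The elongation factor Eef1a1 had the largest loss in CPM among called genes outside those families, at 13872 ± 38.2 CPM in mimetic and 16254 ± 237 CPM in WT. Mitochondrially encoded genes were higher in 2 of 12 and lower in 0 (median 0.149). Without WT replicate 1, 1 was higher and the median was 0.0858, and in the fit of the 6 libraries alone 5 were higher. The oxidase subunit mt-Co1 averaged 3397 ± 62.4 CPM in mimetic and 2843 ± 112 CPM in WT. The other was mt-Nd4, at 53.6 CPM in mimetic and 39 CPM in WT. Its call ended in limma-voom (adjusted p = 0.084) and DESeq2 (adjusted p = 0.103), and in 3 of the 6 fits that left out a library (adjusted p up to 0.117).

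The actin cytoskeleton list was lower in 21 of 40 genes and higher in 8 (median -0.189). Cofilin (Cfl1), which severs actin filaments, had 1273, 1324 and 1304 CPM in the mimetic libraries, against 1837, 1848 and 1823 CPM in the WT libraries (log2 fold change -0.50, SE 0.04, adjusted p = 1.05e-09). No overlap was seen in Cfl1 or in the next 3 genes. Tropomyosin Tpm4 averaged 480.4 ± 25.3 CPM in mimetic and 742 ± 12.5 CPM in WT. The crosslinker filamin A (Flna) averaged 2206 ± 63.4 CPM in mimetic and 2886 ± 33.9 CPM in WT. Its log2 fold change was -0.388, and its block of neighbouring genes on chromosome X had a median of -0.177. Beta-actin (Actb) averaged 7443 ± 212 CPM in mimetic and 8448 ± 67.8 CPM in WT. The non-muscle myosin Myh14, found in epithelia, went the other way and rose to 9.57 ± 0.994 CPM in mimetic, against 3.3 ± 0.184 CPM in WT.

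Stress and redox genes were mixed. Chaperones were lower in 6 of 19 and higher in 4 (median -0.0314). Without mimetic replicate 1, WT replicate 2 or WT replicate 3, 5 were lower and 2 higher. Hsp90ab1, a constitutive HSP90, averaged 6306 ± 167 CPM in mimetic and 7578 ± 134 CPM in WT. Stip1, which joins HSP70 to HSP90, averaged 631 ± 11.3 CPM in mimetic and 762 ± 11.4 CPM in WT. The unfolded protein and integrated stress list was higher in 9 of 30 and lower in 7 (median 0.0106). Over all tested genes 23.1% were higher and 21.8% lower. Trib3, a pseudokinase induced by stress, averaged 105 ± 1.29 CPM in mimetic and 63.3 ± 0.842 CPM in WT. Hspa5, the lumenal chaperone BiP, averaged 1032 ± 37.2 CPM in mimetic and 794 ± 10.8 CPM in WT. Asparagine synthetase (Asns) averaged 568 ± 19.8 CPM in mimetic and 708 ± 9.48 CPM in WT. NRF2 and glutathione genes were higher in 11 of 31 and lower in 8 (median -0.0232). Slc7a11, the cystine importer, averaged 209 ± 9.77 CPM in mimetic and 117 ± 4.47 CPM in WT. G6pdx, which feeds the pentose phosphate pathway, fell to 95.5 ± 3.05 CPM in mimetic, against 157 ± 2.48 CPM in WT.

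Immediate early genes were higher in 14 of 29 and lower in 6 (median 0.272). Fos, an AP-1 subunit, had 6.9, 4.93 and 6.06 CPM in the mimetic libraries, against 1.56, 1.81 and 1.78 CPM in the WT libraries (log2 fold change 1.79, SE 0.16, adjusted p = 1.69e-08). The groups of Fos did not overlap, nor did those of Dusp1 and Egr1. The phosphatase Dusp1 averaged 11.8 ± 0.42 CPM in mimetic and 4.13 ± 0.552 CPM in WT. The zinc-finger factor Egr1 averaged 20.7 ± 2.04 CPM in mimetic and 9.34 ± 1.75 CPM in WT. Targets of YAP and TEAD were higher in 11 of 24 and lower in 5 (median 0.121; 11 and 3 after centring, 10 and 3 without WT replicate 3, 13 and 2 by library size alone). Cyr61, a matricellular target of YAP, averaged 164 ± 6.6 CPM in mimetic and 81.6 ± 5.46 CPM in WT. Tissue factor (F3), which starts coagulation, averaged 74.9 ± 5.43 CPM in mimetic and 35.6 ± 1.55 CPM in WT. Yap1 itself was lower, at 102 CPM in mimetic and 112 CPM in WT, and was named after its values were seen.

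Inflammation genes were higher in 15 of 27 and lower in 3 (median 0.348; 17 and 3 after centring), 5 of them at least 2-fold. Csf1, the macrophage growth factor, averaged 215 ± 8.28 CPM in mimetic and 143 ± 2.26 CPM in WT. Prostaglandin synthase (Ptgs2) averaged 160.2 ± 2.44 CPM in mimetic and 122 ± 3.37 CPM in WT. The chemokine Cxcl16 averaged 2.61 ± 0.499 CPM in mimetic and 0.147 ± 0.143 CPM in WT. None of these 3 overlapped between the lines. Interferon response genes were higher in 9 of 26 and lower in 4 (median 0.327). The median was 0.0481 among the 19 members with at least 5 CPM in 3 libraries, and without WT replicate 2 the count of lower members was 2. Irf9, a transcription factor of the interferon response, stood at 10.9 CPM in mimetic and 7.13 CPM in WT. Antigen presentation genes were higher in 5 of 14 and lower in 2 (median 0.00446). The median was 0.17 without mimetic replicate 3, 0.221 without WT replicate 2, 0.12 after centring and 0.133 among the 10 members with at least 5 CPM in 3 libraries. The non-classical class I gene H2-T23 stood at 16.7 CPM in mimetic and 9.81 CPM in WT. Psme1 and Psme2, proteasome activators called higher, were not called after centring (adjusted p = 0.255 and 0.0732).

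Among S100 proteins and annexins 8 of 21 were higher and 3 lower (median 0.104, and -0.0586 after centring, with 6 higher and 6 lower). These bind calcium, and annexins also bind membranes. Anxa8 averaged 359.7 ± 7.28 CPM in mimetic and 202 ± 1.05 CPM in WT. S100a16 averaged 68 ± 3.69 CPM in mimetic and 32 ± 1.27 CPM in WT. Anxa6 fell to 166 ± 4.39 CPM in mimetic, against 363 ± 6.25 CPM in WT. Anxa3 had one of the largest gains in CPM, at 1463 ± 47.3 CPM in mimetic and 1192 ± 3.4 CPM in WT, a call that centring ended (adjusted p = 0.085).

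Of 5 fibroblast, endothelial and immune markers tested, 4 were higher and 0 lower (median 1.09), and without WT replicate 2, 2 were higher. Their levels were at the low end of the table: 1.63 CPM in mimetic and 0.769 CPM in WT for Col1a1, 3.9 CPM in mimetic and 2.49 CPM in WT for Cd68 and 0.453 CPM in mimetic and 0.134 CPM in WT for Pecam1, with Pdgfra given above. The call for Cd68 ended without WT replicate 2 (adjusted p = 0.0525). That for Pecam1 ended in 4 of the 6 fits that left out a library (adjusted p up to 0.159) and in DESeq2 (adjusted p = 0.0522). The part of any such cells in the other results was not tested.

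The largest single rises and falls were taken among called genes with at least 10 CPM in the higher line and no overlap. Their lack of overlap was thus set by the choice. Ildr2, an immunoglobulin-domain membrane protein of the angulin family to which Lsr belongs, had 12.1, 13.2 and 10.8 CPM in the mimetic libraries, against 0.381, 0.113 and 0.356 CPM in the WT libraries (log2 fold change 5.45, SE 0.24, adjusted p = 4.42e-13). Igf2r, the receptor of IGF2 and mannose 6-phosphate (GRCm38, chromosome 17, 12682406 to 12769664), had 114, 115 and 113 CPM in the mimetic libraries, against 8.88, 9.73 and 8.22 CPM in the WT libraries (log2 fold change 3.67, SE 0.06, adjusted p = 8.72e-20), and averaged 83.6 CPM in deficient and 95.7 CPM in vector. In Igf2r the WT line stood apart from the other 3. Enpp2, the lysophospholipase autotaxin, averaged 12.4 ± 1.33 CPM in mimetic and 0.747 ± 0.0813 CPM in WT. Thrombomodulin (Thbd), an anticoagulant receptor, averaged 11.2 ± 0.584 CPM in mimetic and 0.512 ± 0.305 CPM in WT. Peg10, derived from a retrotransposon, averaged 27.1 ± 2.57 CPM in mimetic and 2.81 ± 0.444 CPM in WT. The other rises at this size were Epb41l4b (11-fold), Tceal8 (7.8-fold), Cpne8 (7.16-fold) and Arhgap29 (5.6-fold). By CPM, large gains outside the keratins included Lmo7, a junctional actin-binding protein. Lmo7 averaged 691 ± 20.9 CPM in mimetic and 435 ± 2.08 CPM in WT. Its log2 fold change was 0.667, and its block of neighbouring genes on chromosome 14 had a median of 0.309. The RNA-binding protein Caprin1 averaged 954 ± 7.64 CPM in mimetic and 661 ± 6.05 CPM in WT. Anxa2 averaged 2358 ± 23.7 CPM in mimetic and 2103 ± 26.6 CPM in WT.

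The largest fall was in Mdga1, a membrane-anchored adhesion protein of neurons (GRCm38, chromosome 17, 29827949 to 29970087). It had 0.598, 0.373 and 0.567 CPM in the mimetic libraries, against 12.5, 11.2 and 14.2 CPM in the WT libraries (log2 fold change -4.61, SE 0.22, adjusted p = 1.83e-12), and means of 0.707 CPM in deficient and 2.9 CPM in vector. Mctp1, a C2-domain membrane protein (GRCm38, chromosome 13, 76384535 to 77031810), had 15.8, 15.5 and 15.2 CPM in the mimetic libraries, against 95.7, 90.5 and 88 CPM in the WT libraries (log2 fold change -2.56, SE 0.08, adjusted p = 1.19e-15), and averaged 8.33 CPM in deficient and 20 CPM in vector. The small GTPase Rab6b had 10, 10.6 and 10.6 CPM in the mimetic libraries, against 41.1, 40.1 and 38.4 CPM in the WT libraries (log2 fold change -1.94, SE 0.12, adjusted p = 4.41e-11), with means of 3.84 CPM in deficient and 15.1 CPM in vector. In these 3 genes WT was the highest of the 4 lines. Ndst3, a heparan sulfate sulfotransferase, averaged 1.82 ± 0.253 CPM in mimetic and 11.1 ± 0.978 CPM in WT. The kinase Lrrk2 averaged 3.1 ± 0.187 CPM in mimetic and 11.2 ± 0.697 CPM in WT. Igf2bp3, an oncofetal RNA-binding protein, averaged 4.31 ± 0.391 CPM in mimetic and 14.3 ± 1.54 CPM in WT. Further falls were Csgalnact1 (3.35-fold), Nol4 (3.56-fold), the thyroid hormone receptor Thrb (3.23-fold), the sialomucin Spn (3.14-fold), the endosomal exchanger Slc9a9 (2.65-fold), Gpsm3 (2.63-fold) and Rgl1 (2.62-fold). Galectin 1 (Lgals1), a secreted lectin, had one of the largest losses in CPM, at 4204 ± 47.1 CPM in mimetic and 5456 ± 20.7 CPM in WT.

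Neighbouring genes shifted together along several chromosomes. The 9702 tested genes of at least 5 CPM had a median log2 fold change of -0.0151. On chromosome 14 the median was 0.259, with 66.6% of genes called higher, and on chromosome 3 it was 0.22, with 64.2% higher. Chromosome 6 had a median of -0.205, with 60.4% lower, and chromosome 19 -0.182, with 52.9% lower. In blocks of 50 neighbouring genes, 32 of 197 blocks had a median above 0.15 and 29 had one below -0.15. Chromosome 14 held the next 2 highest blocks after that of chromosome X, 0.399 and 0.397. After centring each gene on its block, 4273 genes were called (2339 higher and 1934 lower), of which 3398 were called with the same sign without centring, and 643 of the 675 genes at least 2-fold apart were still called.

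**Figure D4:**
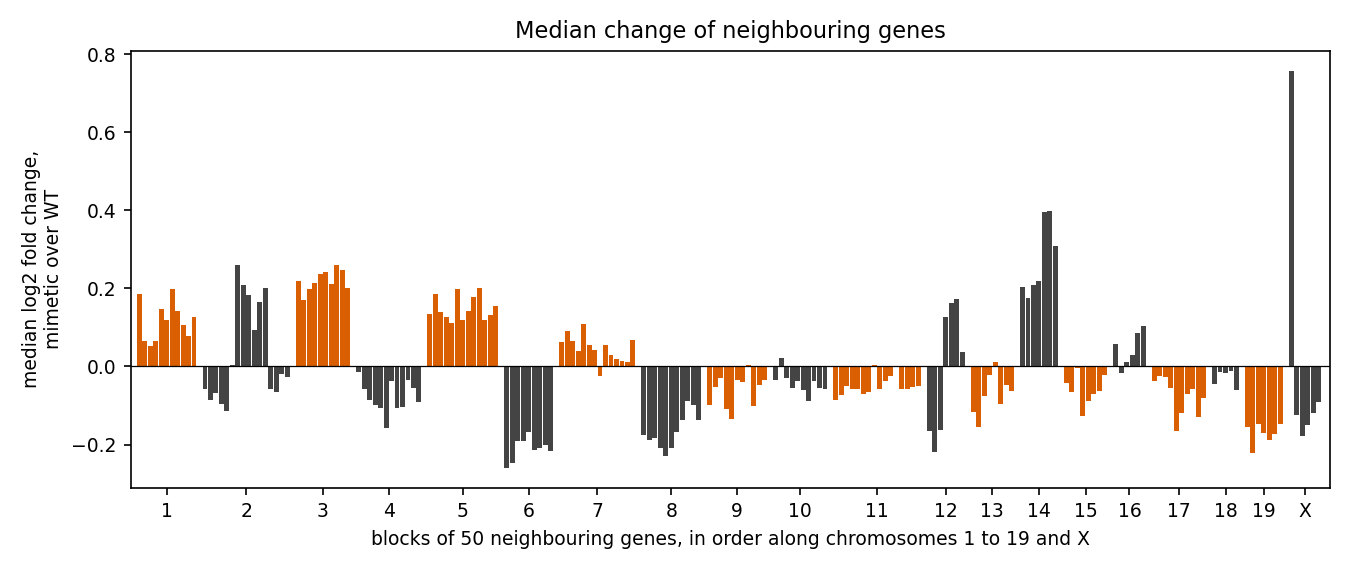
Median log2 fold change of mimetic over WT (vertical axis) in 197 blocks of neighbouring genes of at least 5 CPM, in order along chromosomes 1 to 19 and X (horizontal axis), with neighbouring chromosomes in alternate colours. Chromosomes 3, 5 and 14 lie above 0, chromosomes 6, 8 and 19 below 0, and the first block of chromosome X stands apart at 0.758.

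The first block of chromosome X, from 6399854 to 23806025 (GRCm38), had the highest median of all, 0.758 on the log2 scale or 1.69-fold. Of its 50 genes, 49 were called higher, 0 were lower and 1, Cask, was not called. The middle 50% of its log2 fold changes lay between 0.641 and 0.929, and in all 50 genes the mimetic and WT values did not overlap. Relative to the mean of the 12 libraries of each gene, the median of the block stood at 0.166, 0.172 and 0.16 (log2) in mimetic, 0.229, 0.246 and 0.206 in deficient, -0.588, -0.599 and -0.596 in WT, and 0.22, 0.221 and 0.229 in vector. WT was the lowest of the 4 lines in 48 of the 50 genes. The block holds genes of unlike function: the histone demethylase Kdm6a (2.03-fold), the methyltransferase Suv39h1 (1.52-fold), the deubiquitinase Usp9x (1.64-fold), the kinase Araf (1.97-fold), the WNT acyltransferase Porcn (1.89-fold), and Hdac6, Ebp and Timp1 above. These 5 were named after their values were seen. The next block along the chromosome had a median of -0.125. DNA copy number was not measured, and the cause of the regional shifts was not tested.

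**Figure D5:**
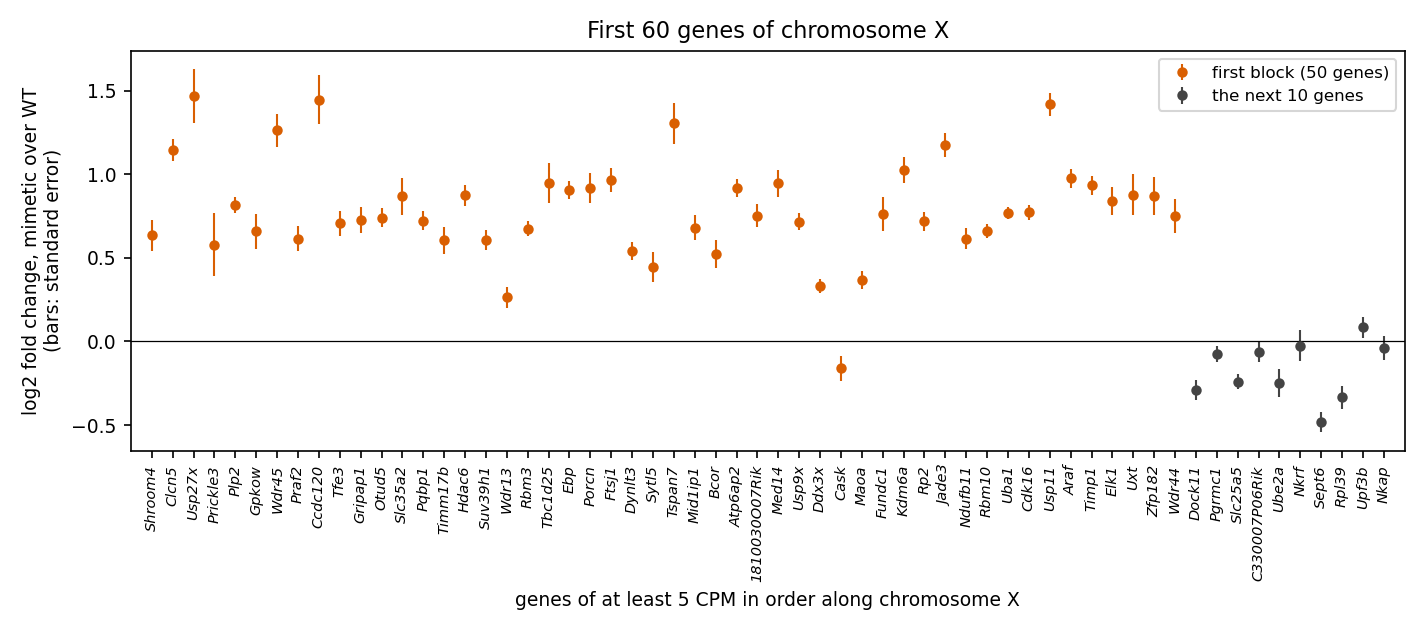
Log2 fold change of mimetic over WT (vertical axis, bars give the standard error) for the first 60 genes of at least 5 CPM in order along chromosome X (horizontal axis). The 50 genes of the first block (orange) lie above 0 except Cask, and the next 10 (grey) lie around or below 0.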

How the data were processed

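RNA of 4 lines, 3 libraries each, was measured with forward QuantSeq 3′ libraries, which count tags near transcript ends, per the labels' protocols. Values are raw counts per gene as deposited, with no normalisation. The submitters' processing notes name STAR and mm10; what counted the reads, with which annotation, strand and versions, was not stated in the sources read here. Overlapping, antisense and near-identical genes are therefore uncertain. Of 12208 gene IDs, 12195 were found in GENCODE M21 (GRCm38), from which coordinates come.

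Differences were tested with edgeR 4.0.16 (R 4.3.3): filterByExpr (181 genes removed), TMM factors, and a quasi-likelihood fit over all 12 libraries with a coefficient per line. P-values are two-sided, Benjamini-Hochberg adjusted over 12027 genes, and called under 0.05. CPM use TMM-scaled library sizes, means carry the SD over 3 libraries, and fold changes are mimetic over WT. The common biological coefficient of variation was 0.0596. Libraries of a line differed beyond sampling noise (chi-square per gene 3.04 to 6.07 on average), so none was a copy. Simulated counts for mimetic against WT (11973 genes) gave calls for 52.3%, 73.8% and 92.9% of genes changed 1.25-fold, 1.5-fold and 2-fold, and for 0.0507% of unchanged genes. The changed genes numbered only 65, 65 and 70, beside 11827 unchanged, whereas 44.9% of tested genes were called in the data. These shares depend on that balance, so they are not the error rates of the calls above.

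The members and gene lists were chosen with earlier results of these data known. Named were Zeb1, Cdh1, Vim, Crb3 and Wnt5a; the 15 largest called log2 fold changes per direction at a mean of 10 CPM or more in the higher of both lines, without overlap and with an annotated name; up to 4 called members per list with the smallest adjusted p, and members against their list; the 8 largest called CPM differences per direction outside mitochondrial and ribosomal protein genes; and all NuRD subunits. Others are named beside counts or as related members, after their values were seen. Lists were described by counts and medians with no set test. Alternatives were DESeq2 1.42.0, limma-voom (limma 3.58.1), RLE factors, library size only, other filters, the 6 libraries alone, a replicate block, a 1.5-fold minimum, leaving out mitochondrial and ribosomal protein genes, and leaving out each library. Centring on blocks of 50 neighbouring genes of at least 5 CPM was added after seeing the data.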

Additional observations from a re-analysis of the deposited data

How the results depend on the processing

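The number of genes called ran from 4273 (centred on neighbouring genes) to 6081 (the 6 libraries alone) over the alternatives with no minimum fold change, against 5398. Leaving out a library in turn gave 4670 to 4817 called genes. At 2-fold or more, a filter of 5 CPM in 3 libraries left 291 genes, 246 higher and 45 lower, since fewer genes were tested. The other alternatives with the 2-fold cut gave 629 to 722, with 629 to 663 when a library was left out. The test against a 1.5-fold minimum, counted without the 2-fold cut, called 573 genes. For Zeb1 the fit of the 6 libraries gave -0.0956, past the threshold (adjusted p = 0.0384). CAGGTG alone was held by 35.1% of genes at least 2-fold higher, 24.5% of all genes called higher and 20.1% of genes not called. By library size alone list medians moved upward: by over 1.5 times to 0.136 for desmosome, 0.109 for EMT factor, 0.131 for WNT, 0.148 for acetyltransferase and 0.16 for S100 and annexin genes, and to -0.0855 for mesenchymal, -0.0706 for NuRD, -0.051 for corepressor, -0.0911 for glycolysis, -0.0512 for S, G2 and M phase and -0.0965 for ribosomal protein genes. Of 206 named genes, 24 lost their call under at least 1 alternative. Direction turned for Chd4 (0.0946), Mta2 (0.0559), Cdk2ap1 (-0.000773) and Mta1 (-0.000543) after centring, for Mbd3 (-0.0394) without mimetic replicate 3 and for Mta3 (-0.00125) without mimetic replicate 2, where leaving out a library gave up to 0.143 for Mbd3 and 0.0419 for Mta3; the cause was not tested. With the replicate number as a block 5514 genes were called. Deviations of same-numbered libraries had correlations of -0.0601, -0.000516 and 0.0163, so no pairing by number was detected. Whether same-numbered libraries were prepared together was not tested. Genes under 1 CPM rest on few counts, and with 1 line per Zeb1 form the lines' other differences cannot be told apart from the form.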
